A study of Prunus sibirica with 30 samples.

Results

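Core histones are the proteins around which plant DNA is wrapped, and 6 genes for 3 kinds of them were followed through a freezing time course in the flowers of Siberian apricot (Prunus sibirica). They were chosen by name: complete entries of the deposited expression table whose best Swiss-Prot name starts with Histone H2A, Histone H3 or Histone H4. This gave 6 of 143 genes, of which 1 was H2A, 2 were H3 and 3 were H4, and the rule itself uses no expression value. The table holds abundant genes only, so less abundant histone genes of this species were not analysed here. A gene named Probable histone H2A.1 falls outside the name rule and is given beside the 6 genes.

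An octamer of H2A, H2B, H3 and H4 forms the core of the nucleosome, and linker histone H1 binds where DNA enters and leaves it. Replication-type histones, here H3.2 and H4, are mainly made while DNA is copied and are laid down behind the replication fork. The replacement variant H3.3 differs from replication-type H3 at a few residues, is made throughout the cell cycle, and is put into chromatin at transcribed genes outside replication.

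Transcripts of flowers in bloom were measured by RNA sequencing. The tissue label reads pistil, but the extraction protocol mentions flowers and flower buds. Clone 453 (CR) carries the label of strong frost resistance and clone 371 (NC) that of weak frost resistance. Flowers of either clone were exposed to -4 °C for 5 durations, namely 0 h, 15 min, 30 min, 1 h and 2 h, which makes 10 groups of 3 libraries. The 0 h groups carry the -4 °C label as well, and there was no group at any other temperature, so effects of cold, of elapsed time and of handling cannot be told apart. Each frost class is a single clone, and separate trees are not named for the replicates, so the p-values measure only the spread between these samples. In such bulk samples, fewer cells of a type and less RNA per cell cannot be told apart.

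Expression is given as FPKM as the authors deposited it, a count of fragments divided by gene length in kilobases and scaled by library size. The values of the 6 genes rest on 2486 to 27006 reads each, so that counting error was at most 2.01%. The median FPKM of the 143 genes ranged from 801 to 1285 over the 15 CR libraries and from 544 to 819 over the 15 NC libraries. Tests were therefore run on the deposited scale and again after each library was centred on its own median, and values of the second kind are called relative. Of the markers searched for in the table, 0 genes marked pistil, 0 marked petals and 0 marked dividing cells, so the labelled tissue could not be checked. The single pollen and anther marker, an Olee1-like gene, lay between 656 and 923 FPKM in CR and between 402 and 738 in NC. The summed FPKM of 5 green tissue markers ranged from 5808 to 11333 in CR and from 4041 to 9485 in NC. As libraries that stood apart from their own group in histone levels or in their ratio to H3.3, 4 were picked after seeing the data, by no fixed rule. These were replicate 1 of CR at 0 h, replicate 1 of CR at 30 min, replicate 3 of NC at 30 min and replicate 2 of NC at 2 h. Libraries not picked could deviate as far. The mean log2 level of the 6 genes, minus that of the group, was 0.49 in replicate 1 of NC at 2 h and -0.33 in replicate 1 of NC at 15 min. In the picked NC libraries it was -0.42 at 2 h and -0.17 at 30 min. Where leaving out the 4 picked libraries changes a call or moves a called value by over 1.5 times, the value without them is given as well.

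The 3 H4 genes are called H4a, H4b and H4c below. H4a (PaF106G0200009755.01) lies on chromosome 2 at 22446210 to 22446664 on the minus strand. H4b (PaF106G0600022341.01) lies on chromosome 6 at 5375595 to 5376132 on the plus strand, and H4c (PaF106G0600024535.01) on the same chromosome at 23183579 to 23184037 on the minus strand. H3.2 (PaF106G0400017711.01) lies on chromosome 4 at 3473134 to 3473802 on the minus strand. In these 4 replication-type genes the gene length in the table equals the span on the chromosome, so no intron shows in these values. H3.3 (PaF106G0600023862.01) lies on chromosome 6 at 18936218 to 18938127 on the minus strand, and its span is 779 bases longer than its gene length of 1131 bases. H2A (PaF106G0600022353.01), on chromosome 6 at 5428588 to 5429693 on the plus strand, has a span 191 bases longer than its length and lies 52455 bases from H4b. Coordinates are those of the deposited table, and for its genome build no name is given in the sources used here. The 3 H4 genes share a Swiss-Prot name, so near-identical copies may divide their reads, and the level of each single copy is uncertain to that extent.

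**Figure D1:**
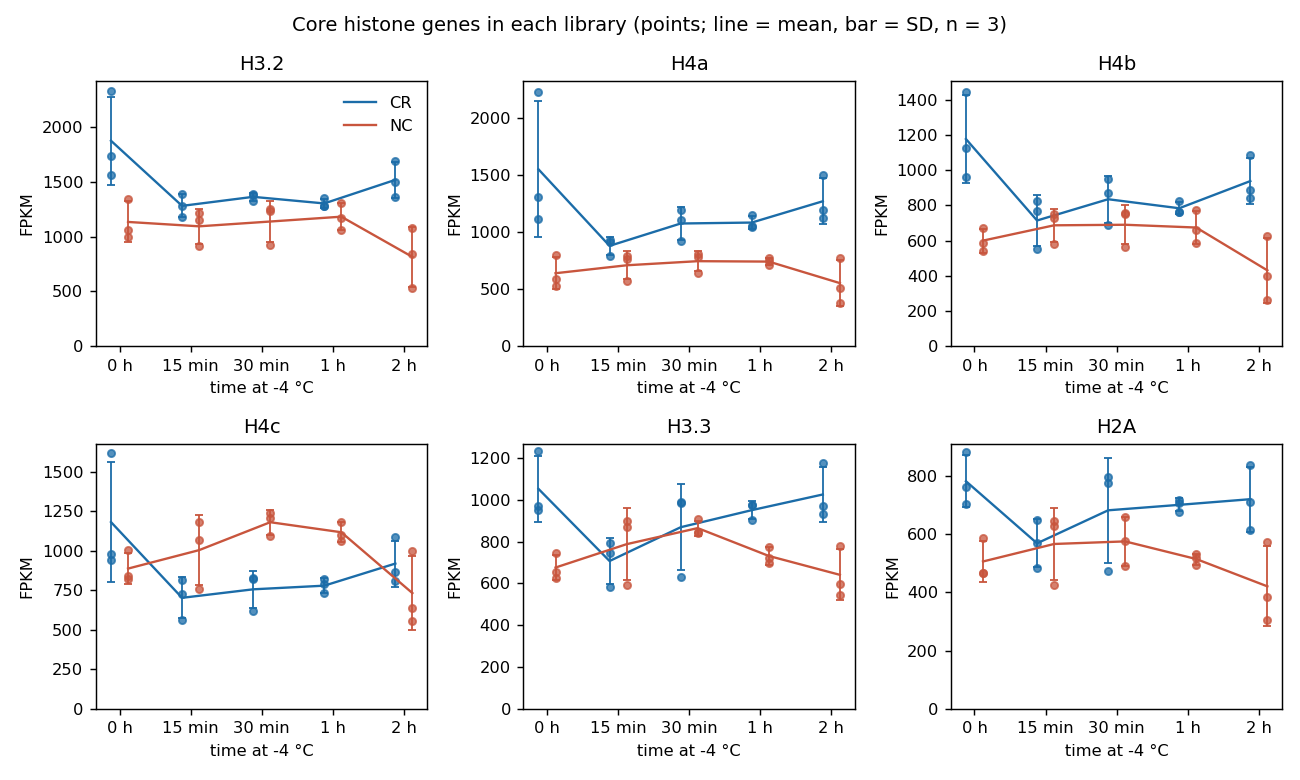
FPKM (linear axis from 0) of each histone gene against time at -4 °C, with 1 point per library, lines through group means and bars of 1 SD (n = 3). CR (blue) lies above NC (red) for H4a in most libraries, with CR from 787 to 2227 and NC from 376 to 809 FPKM, whereas H4c is the gene for which NC runs above CR between 15 min and 1 h.

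H3.2, the replication-type H3, had the highest level of the 6 genes and ranked 30 of 143 by its mean over all libraries. In CR it stood at 2332, 1565 and 1734 FPKM at 0 h, and at 1387, 1178 and 1279.9 FPKM after 15 min. It stayed at 1379.9, 1326 and 1387 FPKM after 30 min and 1355, 1277 and 1279.9 after 1 h, and reached 1693, 1502 and 1363 after 2 h. All 3 libraries at 0 h were above all those after 15 min, 30 min and 1 h, while 0 h and 2 h overlapped. In NC it measured 1348, 994 and 1062 FPKM at 0 h, 915, 1156 and 1214 after 15 min, and 1235, 1254 and 926 after 30 min. The NC values were 1312, 1175 and 1061 FPKM after 1 h and 1079, 526 and 839 after 2 h. Each later NC group overlapped NC at 0 h, and the lowest of the 30 values came from replicate 2 after 2 h. Over all 143 genes, 61.5%, 38.5%, 32.9% and 2.8% did not overlap CR at 0 h after 15 min, 30 min, 1 h and 2 h. In NC these shares were 18.9%, 16.1%, 5.59% and 51.7%. The overlaps given for the other histone genes below stand against the same shares.

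Among the H4 genes, whose product pairs with H3 in the nucleosome core, H4a showed the widest range, 5.93-fold between its lowest and highest library. In CR, H4a stood at 2227, 1109 and 1308 FPKM at 0 h, 932, 787 and 913 after 15 min, and 919, 1107 and 1194 after 30 min. It measured 1147, 1052 and 1045 FPKM after 1 h and 1495, 1189.5 and 1119 after 2 h. The 15 min libraries were all below those at 0 h, and the other times overlapped 0 h. In NC, H4a measured 796, 527 and 591 FPKM at 0 h, 566, 764 and 793 after 15 min, and 809, 778 and 644 after 30 min. It was at 744, 768 and 708 FPKM after 1 h and at 769, 376 and 509.8 after 2 h. These NC groups overlap one another, and 14 of 15 CR libraries exceeded the highest NC value. How many of all genes separate the clones this far was not counted. Averaged over the 5 times, 81.8% of all genes were higher in CR by limma at an adjusted p under 0.05.

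H4b was less abundant, with a mean rank of 94. In CR it measured 1446, 959 and 1125 FPKM at 0 h, 768, 549.9 and 824 after 15 min, 687, 869 and 948 after 30 min, 824, 765 and 762 after 1 h, and 1085, 884 and 844 after 2 h. In NC the values were 674, 538 and 586 FPKM at 0 h, 578, 729.5 and 752 after 15 min, 758, 748 and 562 after 30 min, 774, 660.3 and 587 after 1 h, and 628, 263 and 399.8 after 2 h. The CR values at 0 h were above those at every time up to 1 h, and among the NC groups the libraries after 2 h spread most widely.

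H4c had nearly the same mean level as H4a but another order of groups. In CR it measured 1622, 944 and 982 FPKM at 0 h, 817, 561 and 729.8 after 15 min, 622, 828 and 819 after 30 min, 822, 730.2 and 787 after 1 h, and 1085, 863 and 811 after 2 h. In NC it stood at 1003, 839.9 and 821 FPKM at 0 h, 757, 1071 and 1186 after 15 min, 1240.3, 1211 and 1093 after 30 min, 1186, 1104 and 1065 after 1 h, and 1001, 558 and 639 after 2 h. CR was lower after 15 min, 30 min and 1 h than in any 0 h library, whereas NC was higher after 30 min and 1 h than in any of its 0 h libraries. All 3 NC libraries were above all 3 CR libraries after 30 min and again after 1 h. The clones did not overlap, in either direction, for 55.2% and 74.1% of all genes at these times.

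H3.3, the replacement variant, moved over the narrowest range, 2.26-fold between its extremes. In CR it measured 1233, 972 and 953 FPKM at 0 h, 747, 582 and 793 after 15 min, 632, 988 and 987 after 30 min, 975, 902 and 976 after 1 h, and 1175, 972 and 930.1 after 2 h. In NC it was at 743, 657 and 628 FPKM at 0 h, 591, 872 and 901 after 15 min, 845, 843 and 906 after 30 min, 722, 777 and 696 after 1 h, and 779, 599.6 and 545 after 2 h. The CR libraries after 15 min lay below those at 0 h, and the later CR times overlapped 0 h, while all 3 NC libraries after 30 min were above those at 0 h.

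H2A, which pairs with H2B in the nucleosome, was the least abundant of the 6 genes, at rank 138. In CR it measured 881, 704 and 761 FPKM at 0 h, 570.0, 485 and 650.0 after 15 min, 474, 774 and 797 after 30 min, 708, 718 and 676 after 1 h, and 836, 709 and 614 after 2 h. In NC it was at 586, 467 and 465 FPKM at 0 h, 425, 627 and 646 after 15 min, 576, 659.9 and 489 after 30 min, 518, 531 and 494 after 1 h, and 573, 305 and 384 after 2 h. CR after 15 min was below CR at 0 h in all 3 libraries, and the other time groups of either clone overlapped their 0 h group.

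Ordering the 10 groups by mean level put CR at 0 h first for all 6 genes. CR at 2 h came second for every gene but H4c, for which NC at 30 min, 1 h and 15 min followed next. Most neighbours in these orders differed by less than the larger of their SDs. The steps that exceeded it were CR at 30 min over CR at 15 min and CR at 15 min over NC at 30 min for H4a, NC at 0 h over CR at 1 h for H4c, and, for H3.2, CR at 30 min over CR at 1 h and NC at 15 min over NC at 2 h. For H4b, H3.3 and H2A no step between neighbours exceeded it.

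The first comparison asked how histone transcripts changed during the freezing exposure of the frost-resistant clone. At 15 min all 6 genes were lower in CR than at 0 h by limma at an adjusted p under 0.05, against 60.1% of the 143 genes that were lower. H4a changed by -0.76 (SE 0.214; adjusted p = 0.00586 in limma) on the log2(FPKM + 1) scale, and H4b and H4c both by -0.72 (limma adjusted p = 0.00675 and 0.00539). H3.3 changed by -0.58 (limma adjusted p = 0.00653), H3.2 by -0.53 (0.0182) and H2A by -0.46 (0.0444). The median over the 6 genes was -0.65, against -0.39 over all 143 genes. All 6 genes had non-overlapping groups, as did 61.5% of all genes. Centring the libraries takes out a shift of -0.36, and on that relative scale all 6 values were still negative, from -0.39 to -0.10. Of these, H4a and H4c passed the test (limma adjusted p = 0.0448 and 0.0441), where 17.5% of all genes were lower. The number of calls rests on single libraries: without replicate 1 of CR at 0 h, the highest library for each of the 6 genes, 0 of 6 passed and H4a was at -0.46, and without replicate 2 of CR at 15 min 2 passed. Without the 4 libraries that stood apart 2 passed. The summed green tissue markers also moved, from between 7399 and 11333 FPKM at 0 h to between 5808 and 7266 at 15 min, and their part in the result was not tested.

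Later CR times share the 0 h libraries with that comparison, so their values are given side by side and not as further evidence. At 30 min H4c changed by -0.61 (limma adjusted p = 0.0243) and was the only one of the 6 genes to pass, where 33.6% of all genes did. H4b was at -0.49, H4a at -0.47, H3.2 at -0.44, H3.3 at -0.30 and H2A at -0.23. The 30 min call for H4c was absent on the relative scale (-0.32, limma adjusted p = 0.136), where 0 of 6 genes and 3.5% of all genes passed. Leaving out single libraries gave between 0 and 4 calls at this time: 0 without replicate 1 of CR at 0 h or replicate 1 of CR at 30 min, and 4 without replicate 2 of CR at 0 h. At 1 h the 3 H4 genes and H3.2 lay between -0.57 and -0.45, while H3.3 was at -0.14 and H2A at -0.15. None of the 6 passed limma at 1 h, where 6.29% of all genes did, and 4 of the 6 had an unadjusted p under 0.05, as did 39.2% of all genes. Without replicate 2 of CR at 0 h, 4 passed. Without replicate 1 of CR at 0 h, H4a was at -0.16, H4c at -0.31, H3.2 at -0.34, H4b at -0.41, H2A at -0.06 and H3.3 at -0.02, and none passed. At 2 h the 6 values ran from -0.33 for H4c to -0.03 for H3.3, with 0 of 6 called by limma, 0 at an unadjusted p under 0.05, where limma called 0% and 4.2% of all genes. The F test over the 4 times called H4c (limma adjusted p = 0.0337) and H3.3 (0.0371), where 35% of all genes were called. Without replicate 2 of CR at 0 h the F test called 4, without replicate 1 of CR at 15 min or replicate 1 of CR at 2 h it called 1, and without replicate 1 of CR at 0 h or replicate 2 or 3 of CR at 15 min it called 0. On the relative scale it called 0 of 6, against 16.1% of all genes.

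**Figure D2:**
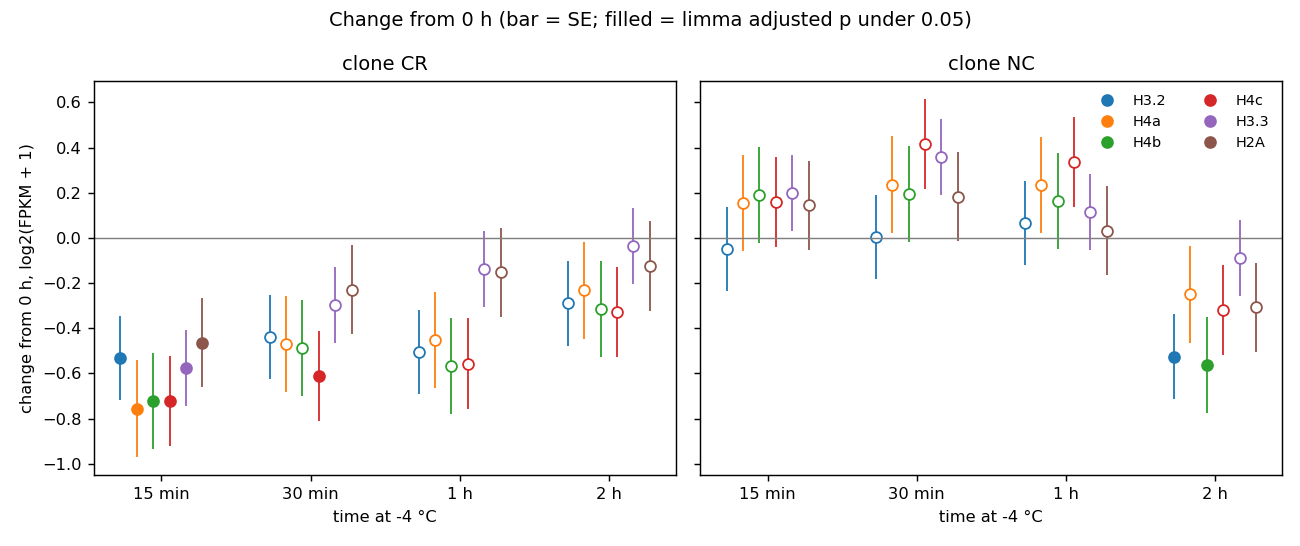
Change from 0 h on the log2(FPKM + 1) scale for the 6 histone genes in CR (left) and NC (right), with bars of 1 SE from limma and filled symbols where the adjusted p was under 0.05. In CR at 1 h the replication-type genes sit between -0.57 and -0.45 and H3.3 and H2A near -0.15, and in NC the values are mostly above 0 until 2 h.

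The same comparison in the frost-sensitive clone gave 0 of 6 calls at 15 min, 30 min and 1 h, where limma called 2.1%, 0% and 0% of all genes. At an unadjusted p under 0.05 there were 0 of 6 at 15 min, 2 of 6 at 30 min and 0 of 6 at 1 h, against 11.9%, 13.3% and 0.699% of all genes. At 30 min H4c was at 0.42 (95% interval 0.01 to 0.83) and H3.3 at 0.36 (0.02 to 0.70), and H3.2 was at 0.00 (-0.38 to 0.39). The relative values of H4c and H3.3 at 30 min, 0.42 and 0.37, passed the test (limma adjusted p = 0.0351 and 0.047), where 6.29% of all genes were higher. At 2 h H3.2 fell by 0.53 (limma adjusted p = 0.0171) and H4b by 0.56 (0.0224), while 62.9% of all genes were lower. Values for the other genes were -0.32 for H4c, -0.31 for H2A, -0.25 for H4a and -0.09 for H3.3. The median of the 6 genes, -0.31, was close to the -0.39 of all 143 genes. After removal of the shift of -0.32, H3.2 was at -0.20 and H4b at -0.24, and 0 of 6 genes passed, against 41.3% of all genes. None of the 6 had non-overlapping groups at 2 h, whereas 51.7% of all genes did.

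The 2 h calls in NC also rest on single libraries. Leaving out replicate 1 of NC at 0 h or replicate 2 of NC at 2 h left 0 calls, leaving out replicate 3 of NC at 2 h left 1, and leaving out replicate 1 of NC at 2 h gave 5. Without the 4 libraries that stood apart, H3.2 was at -0.24 and H4b at -0.25, and neither passed. Green tissue markers summed to between 7178 and 8671 FPKM in NC at 0 h and to between 4041 and 5811 at 2 h, and the pollen and anther marker went from between 619 and 688 to between 402 and 551. Their part in the result was not tested. Over the 4 times, the F test in NC called H4b (limma adjusted p = 0.011), H4c (0.0145) and H3.2 (0.0359), where 69.9% of all genes were called. On the relative scale it called H4c alone of the 6 (limma adjusted p = 0.0264), against 58.7% of all genes. The number called without single libraries ran from 0, without replicate 2 or replicate 3 of NC at 2 h, to 6, without replicate 1 of NC at 2 h.

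Replication-type genes were then set against H3.3 within each library, a ratio on which library scaling has no effect. These ratios are described without a test, and the share of all genes with a like ratio to H3.3 was not computed. In CR the change of H3.3 ranked 104 of 143 at 1 h and 114 at 2 h, counted from the lowest, so most genes fell relative to it. The median change over all genes at these times was -0.25 and -0.12, against -0.14 and -0.03 for H3.3. In CR the log2 ratio of H3.2 to H3.3 was 0.82 ± 0.12 (SD, n = 3) at 0 h and 0.87 ± 0.17 at 15 min, so both genes went down together at that time. It was 0.68 ± 0.39 at 30 min, where replicate 1 stood at 1.13 and replicates 2 and 3 at 0.42 and 0.49. At 1 h it was 0.46 ± 0.06 and at 2 h 0.57 ± 0.05, and all 3 libraries of each of these times lay below all 3 at 0 h. The ratio of H4b was 0.15 ± 0.15 at 0 h, 0.00 ± 0.08 at 15 min and -0.04 ± 0.15 at 30 min. It was -0.28 ± 0.07 at 1 h and -0.13 ± 0.01 at 2 h, both without overlap with 0 h. H4c went from 0.13 ± 0.23 at 0 h to -0.29 ± 0.03 at 1 h and -0.16 ± 0.04 at 2 h, also without overlap. H4a stood at 0.50 ± 0.33 at 0 h, 0.19 ± 0.07 at 1 h and 0.30 ± 0.04 at 2 h, and these groups overlapped. For all 4 genes the change of the ratio at 1 h and at 2 h was negative, and it stayed negative when any single library was left out. For H4a without replicate 1 of CR at 0 h the change was -0.14 at 1 h and -0.02 at 2 h.

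**Figure D3:**
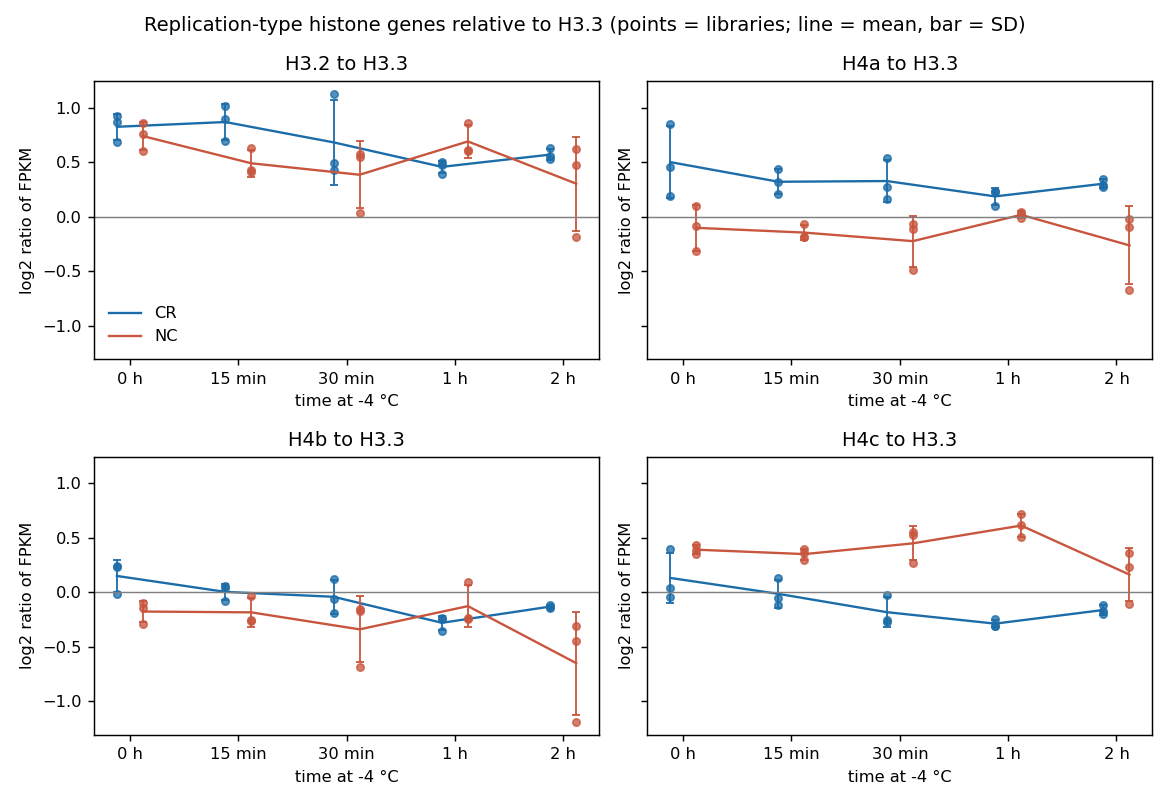
Log2 ratio of the FPKM of each replication-type gene to that of H3.3 in the same library, by time and clone, with lines through group means and bars of 1 SD (n = 3). In CR the H3.2, H4b and H4c ratios at 1 h and 2 h lie below all 0 h libraries, times at which most genes fell relative to H3.3. NC replicate 2 at 2 h is the lowest point for H3.2 (-0.19), H4a (-0.67) and H4b (-1.19).

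In NC the ratios took another course. Counted from the lowest, the NC change of H3.3 ranked 115, 135, 107 and 117 of 143 after 15 min, 30 min, 1 h and 2 h. Most genes thus fell relative to H3.3 at each of these times. At 30 min H3.3 itself changed by 0.36 and H3.2 by 0.00 on the log2(FPKM + 1) scale. H3.2 to H3.3 was 0.74 ± 0.13 at 0 h, then 0.49 ± 0.12 after 15 min, 0.38 ± 0.31 after 30 min, 0.69 ± 0.15 after 1 h and 0.30 ± 0.43 after 2 h, and the 30 min group alone did not overlap 0 h. H4c to H3.3 was 0.39 ± 0.04 at 0 h and 0.61 ± 0.10 at 1 h, where all 3 libraries exceeded those at 0 h. H4b to H3.3 was -0.18 ± 0.10 at 0 h and -0.65 ± 0.47 at 2 h, without overlap. The 30 min change of the H3.2 ratio depends on replicate 3, at 0.03 against 0.55 and 0.57 in the others, and went from -0.35 to -0.18 without it. The 2 h values depend on replicate 2: leaving it out took the change from 0 h of the H4b ratio from -0.47 to -0.20, that of H3.2 from -0.44 to -0.19 and that of H4a from -0.16 to 0.04. H2A kept close to H3.3 in both clones, with a linear ratio of FPKM between 0.661 and 0.834 in CR and between 0.509 and 0.788 in NC.

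The second comparison set the resistant against the sensitive clone. At 0 h, 5 of 6 genes were higher in CR by limma, where 70.6% of all genes were higher. H4a differed by 1.23 (SE 0.214; limma adjusted p = 1.3e-05), H4b by 0.96 (0.000235), H3.2 by 0.72 (0.0012), and H3.3 and H2A by 0.63 each (0.00137 and 0.00584). H4c was at 0.37 (limma adjusted p = 0.0925), at 0.12 without replicate 1 of CR at 0 h, and at 0.51 and past the test without replicate 2 of CR at 0 h. Without replicate 1 of CR at 0 h H4a was at 0.94 and the other 4 genes also kept their calls. The shift between the clones at 0 h was 0.52. After centring, H4a (0.72, limma adjusted p = 0.000188) and H4b (0.44, 0.0165) remained higher, and H4c was at -0.14. On that scale 37.1% of all genes were higher.

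**Figure D4:**
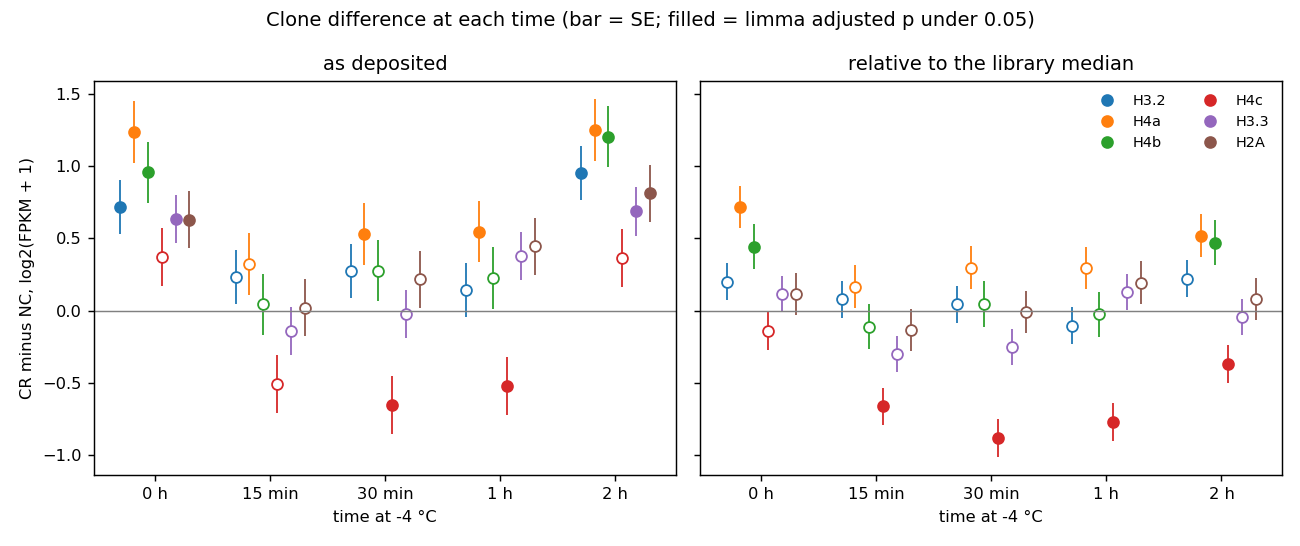
CR minus NC at each time for the 6 histone genes, on the deposited scale (left) and relative to the library median (right), as log2(FPKM + 1) differences with bars of 1 SE from limma and filled symbols where the adjusted p was under 0.05. H4c (red) is the lowest gene at all 5 times in both panels, and on the relative scale it is below 0 throughout, from -0.88 at 30 min to -0.14 at 0 h.

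Between 15 min and 1 h H4a and H4c lay on opposite sides of the clone comparison. At 15 min 0 of 6 genes passed on the deposited scale, where 14.7% of all genes did and where 1 of 6 and 33.6% of all genes had an unadjusted p under 0.05. H4c was at -0.51 (limma adjusted p = 0.0909). Its relative value at 15 min, -0.66, passed (limma adjusted p = 0.000439), where 13.3% of all genes were lower. At 30 min H4c was lower in CR (-0.65, limma adjusted p = 0.0111) and H4a higher by 0.53 (0.044), where 46.2% of all genes were called in either direction and 6.29% were lower. At 1 h H4c was lower (-0.52, limma adjusted p = 0.0369) and H4a higher by 0.55 (0.0387), where 47.6% of all genes were called. Without any single one of the 6 libraries compared, 0 of 6 genes passed at 1 h and 1 of 6 passed at 30 min. At 30 min that gene was H4a when replicate 1 of CR at 30 min was left out (limma adjusted p of H4c = 0.0501) and H4c otherwise. Without the 4 libraries that stood apart, 4 genes passed at 1 h, H3.3 and H2A being added, and 1 passed at 15 min, H4c. Without replicate 1 of NC at 15 min 1 also passed at 15 min. The relative values of H4c were -0.88 at 30 min (limma adjusted p = 1.32e-05) and -0.77 at 1 h (5.4e-05), where 16.1% and 16.8% of all genes were lower. H4a, at 0.30 at both of these times on the relative scale, did not pass.

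At 2 h 5 of 6 genes were higher in CR, where 84.6% of all genes were. H4a differed by 1.25, H4b by 1.20, H3.2 by 0.95, H2A by 0.81 and H3.3 by 0.69, with limma adjusted p from 5.13e-06 to 0.000412. H4c was at 0.36 (limma adjusted p = 0.0869) on the deposited scale and lower in CR on the relative scale, at -0.37 (0.0162), as were 23.8% of all genes. On the deposited scale H4c was at 0.19 without replicate 2 of NC at 2 h, and at 0.61 and past the test without replicate 1 of NC at 2 h. Without replicate 2 of NC at 2 h the other 5 genes kept their calls, H4a at 1.01 and H4b at 0.89. The sign of H3.3 also turned, to a relative value of -0.05, after removal of a shift of 0.73. Averaged over the 5 times, H4a was higher in CR by 0.78 (95% interval 0.58 to 0.97), H4b by 0.54, H3.2 by 0.46, H2A by 0.42 and H3.3 by 0.31, and H4c was lower (-0.19, from -0.37 to -0.01). All 6 passed limma, where 88.8% of all genes did, and the adjusted p of H4c was 0.0493. The H4c call was kept in 10 of the 30 fits that each left out 1 library, with values from -0.24 to -0.14. On the relative scale 3 of 6 genes passed, against 69.2% of all genes. These were H4a at 0.40 (limma adjusted p = 8.57e-06), H4b at 0.16 (0.0403) and H4c at -0.57 (7.6e-09), and H3.3 turned to -0.07.

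The opposite placing of the H4 copies shows within each library. In CR the linear ratio of H4a to H4c ran from 1.14 to 1.48 with a median of 1.38, and in NC from 0.589 to 0.797 with a median of 0.674. All 15 CR libraries were above all 15 NC libraries, at every time, including those that stood apart from their groups. The ratio of H4b to H4c separated the clones in the same way, from 0.892 to 1.16 in CR and from 0.471 to 0.764 in NC. How many other gene pairs separate the clones like this was not counted. Relative to the median, 69.2% of all genes differed between the clones over the 5 times. H4a supplied 36.8% to 42.0% of the summed FPKM of the 3 H4 genes in CR and 27.5% to 32.9% in NC. H4c supplied 27.7% to 32.5% in CR and 39.8% to 47.5% in NC. The ratio of H4a to H3.3 also ran higher in every CR library, but its lowest CR value of 1.0712 and its highest NC value of 1.0711 nearly met. Whether sequence differences between the clones changed how reads were assigned to each copy was not tested.

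**Figure D5:**
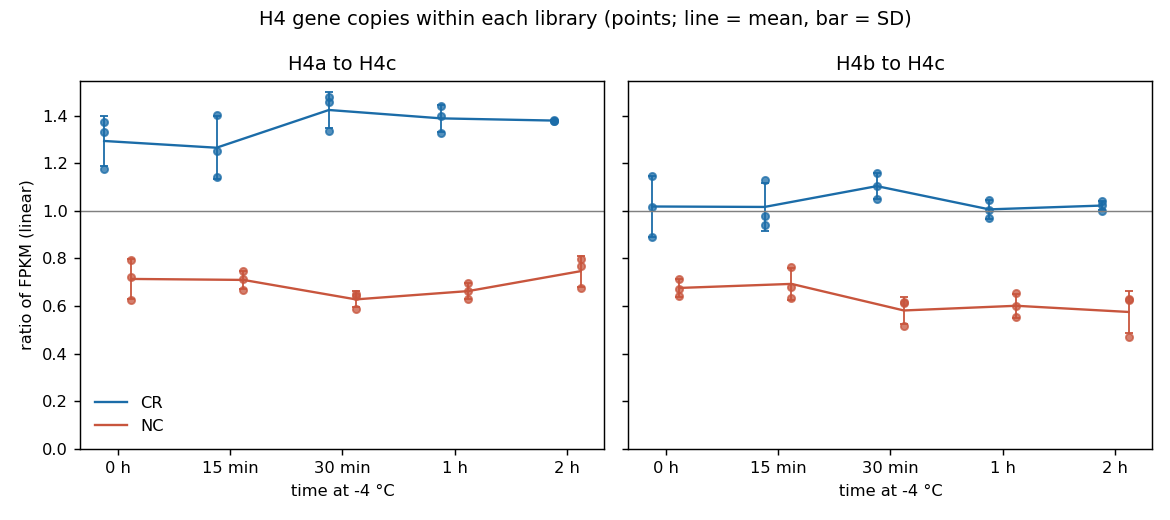
Linear ratio of FPKM (axis from 0) of H4a to H4c and of H4b to H4c in each library, by time and clone, with lines through group means and bars of 1 SD (n = 3). Every CR library lies above every NC library in both panels, and the line at 1 marks equal FPKM of both copies. The number of other gene pairs that separate the clones was not counted.

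The summed FPKM of the 3 H4 genes does not show this difference between the copies. It was 3907 ± 1219 (SD, n = 3) in CR at 0 h, 2294 ± 344 after 15 min, 2665 ± 386 after 30 min, 2645 ± 131 after 1 h and 3126 ± 475 after 2 h. In NC it was 2125 ± 305 at 0 h, 2399 ± 439 after 15 min, 2615 ± 275 after 30 min, 2532 ± 172 after 1 h and 1714 ± 618 after 2 h. The means of both clones lie within 1 SD of each other after 15 min, 30 min and 1 h. All 3 CR libraries are above all 3 NC libraries at 0 h and after 2 h, times at which 73.4% and 90.2% of all single genes did not overlap between the clones.

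The third comparison tested whether the time course itself differed between the clones, as the change in CR minus the change in NC. The F test over the 4 times called 5 of 6 genes, where 78.3% of all genes were called. These were H4c (limma adjusted p = 0.00311), H4b (0.00466), H3.3 (0.00778), H4a (0.0146) and H3.2 (0.0264), and H2A was at 0.0703. The H3.2 call was lost without replicate 1 of CR at 2 h (limma adjusted p = 0.0689) and without replicate 2 of NC at 2 h (0.063). At 15 min, 4 genes had a more negative change in CR, where 42% of all genes did: H4a and H4b by -0.91 each, H4c by -0.88 and H3.3 by -0.77. Without replicate 1 of CR at 0 h or replicate 2 of CR at 15 min, 0 of 6 passed at 15 min, and without replicate 3 of NC at 15 min 2 did. Without the 4 libraries that stood apart the same 4 genes passed at 15 min, with values from -0.75 to -0.62. At 30 min the difference was -1.03 for H4c (limma adjusted p = 0.0268), and the others did not pass, where 9.09% of all genes did. The 30 min call was lost without the 4 libraries that stood apart, without replicate 1 of CR at 0 h, replicate 1 of CR at 30 min, replicate 2 of NC at 0 h or replicate 3 of NC at 0 h. There were 4 calls at 30 min without replicate 2 of CR at 0 h, and 2 without replicate 2 or replicate 3 of CR at 30 min. At 1 h and 2 h 0 of 6 genes were called by limma, where 0.699% and 16.8% of all genes were, and without replicate 2 of CR at 0 h 3 were called at 1 h. At an unadjusted p under 0.05 there were 4 of 6 at 1 h and 0 of 6 at 2 h, against 24.5% and 37.8% of all genes. Relative to the median, H4c alone of the 6 kept its call in the F test (limma adjusted p = 0.0131), against 49% of all genes. At the single time of 15 min, 3 of 6 passed on that scale, where 27.3% of all genes were lower. These were H4a and H4b at -0.55 each (limma adjusted p = 0.0346 and 0.0452) and H4c at -0.52 (0.028). At 30 min H4c alone passed (-0.74, limma adjusted p = 0.0105), where 6.99% of all genes were lower.

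Genes of the most similar pattern were those with the smallest SD over the 30 libraries of the log2 ratio to the histone gene. For H4c this was linker histone H1.2 (SD 0.157), ahead of the aquaporin TIP1-1 (0.215) and ribosomal protein L10 (0.226), where the median over all genes was 0.406. H4a, by contrast, was at 0.505 from H4c and 120 in rank of 142. That SD spans both clones and so includes the offset between them. Within the clones the log2 ratio of H4a to H4c ran from 0.19 to 0.56 in CR and from -0.76 to -0.33 in NC. The nearest to H4a were both ribosomal protein S29 genes (0.154 and 0.161) and SPIRAL1-like 1 (0.158). H4b lay nearest to H3.2 (0.142), and after it to ribosomal proteins L22-2 (0.169), S23 (0.170) and S11 (0.171). Outside the histones of the name rule, H3.2 was nearest to ribosomal protein S15-4 (0.127), L22-2 (0.147) and Probable histone H2A.1 (0.149). Glycine-rich protein 2 (0.106) was the nearest to H3.3, followed among other genes by ribosomal proteins L27a-3 (0.159) and L26-1 (0.164), with H2A at 0.152. H2A was nearest to ribosomal proteins S8 (0.130), L15 (0.136) and L26-1 (0.139). Library scaling has no effect on these ratios, but differences between the clones enter each SD. The values describe likeness only.

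A list of other chromatin and DNA replication genes had 3 members in the table, H1.2 and a pair of genes named High mobility group B protein 2, a DNA-bending chromatin protein. In CR all 3 fell at 15 min, 30 min and 1 h by limma, with background shares of lower genes as above. Relative to the median, H1.2 alone passed at 15 min (-0.25, limma adjusted p = 0.0291), where the pair of High mobility group genes turned to 0.09 and 0.03. At 30 min and 1 h 0 of 3 passed on that scale, against 3.5% and 0% of all genes. On the deposited scale H1.2 changed by -0.61 at 15 min (limma adjusted p = 0.00232), -0.54 at 30 min and -0.47 at 1 h. In NC 0 of 3 passed limma at any single time, and 1 of 3, H1.2, had an unadjusted p under 0.05 at 30 min, 1 h and 2 h, at 0.36, 0.38 and -0.31, as had 13.3%, 0.699% and 71.3% of all genes. Relative to the median, H1.2 was higher at 30 min (0.37, limma adjusted p = 0.0139) and at 1 h (0.34, 0.0465), and 1 High mobility group gene at 2 h (0.31, 0.00524), where 14.7%, 0.699% and 41.3% of all genes passed. H1.2 was also lower in CR than in NC at 30 min (-0.39, limma adjusted p = 0.024) and at 1 h (-0.34, 0.0476), the same sign as H4c at both times. It was higher in CR at 0 h by 0.51 (limma adjusted p = 0.00175) and at 2 h by 0.49 (0.00191), but its relative value at 2 h was -0.24, and that at 0 h was near 0. Probable histone H2A.1 was higher in all 15 CR libraries, 863 to 1579 FPKM, than in all 15 NC libraries, 517 to 852 FPKM. So was 1 High mobility group gene, at 699 to 1142 FPKM in CR and 531 to 678 in NC. How many of all genes separate the clones this fully was not counted. Over the 5 times Probable histone H2A.1 differed by 0.54 (limma adjusted p = 3.67e-09), where 81.8% of all genes were higher in CR. Relative to the median it differed by 0.16 (limma adjusted p = 0.000714). In CR it changed by -0.48 at 15 min, -0.42 at 30 min and -0.50 at 1 h, each past the test, but its relative values of -0.11, -0.12 and -0.27 did not pass.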

How the data were processed

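The authors deposited 1 table of FPKM with a column for each of 30 libraries. Per the submitters' processing notes, which state neither role nor order, the tools were HISAT2, Picard, GATK and SAMtools 0.1.18. The sources used here name no read counter, annotation or genome build. Multiplying FPKM by gene length gave whole multiples of a step particular to each library in 4290 of 4290 values (tolerance 1e-06), and so the reads behind each value, with implied divisors from 16962200 to 22431300. Of the table, 143 complete genes were used and 1 incomplete entry was dropped. FPKM values are shares, so other abundant transcripts move every gene of a library together. Group means of all 10 groups were fitted in limma 3.58.1 (R 4.3.3) to log2(FPKM + 1), using its mean-variance trend. Two-sided p-values were corrected over 143 genes per comparison after Benjamini and Hochberg, with 0.05 as threshold. A filter of FPKM at least 1 in at least 3 libraries removed 0 genes. Named genes are all those of the name rule, the listed chromatin genes, and for each histone the 3 other genes of most similar pattern. The fits were tested on simulated data. Members and lists were chosen with earlier results of these data known. The alternatives were other pseudocounts, scalings, variance models, subsets of libraries and a replicate block.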

Additional observations from a re-analysis of the deposited data

Results flagged for a closer look

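For 5 of the 6 histone genes the time course differed between the clones in the clone by time interaction. The limma F test gave an adjusted p of 0.0146 for H4a, 0.00466 for H4b, 0.00311 for H4c, 0.0264 for H3.2 and 0.00778 for H3.3, while 78.3% of all 143 genes passed the same test. Relative to the library median, 1 of the 6 passed it, H4c, against 49% of all genes. The H3.2 call on the deposited scale was kept in 28 of the 30 fits that each left out 1 library.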

How the results depend on the processing

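Direction held in most alternatives: of 1248 values of single genes, 3 turned sign where the value was called on at least 1 of the scales compared. A further 40 turned sign where neither value was called. The 1248 include F tests, which have no sign, and exclude the fits that left out 1 library. With libraries centred on their median, the CR minus NC difference was -0.37 for H4c and -0.046 for H3.3 at 2 h and -0.071 for H3.3 over the 5 times. On that scale the genes called numbered 2 in CR at 15 min, 0 at 30 min, 0 over time, 2 in NC at 30 min, 0 at 2 h, 1 over time, 2, 1, 1, 1 and 3 between clones at 0 h, 15 min, 30 min, 1 h and 2 h, 3 over the 5 times, and 1 in the interaction over time. With centring on genes other than ribosomal proteins they were 2 in CR at 15 min, 0 at 30 min, 0 over time, and 3 and 1 between clones at 0 h and 15 min. Set against centring on all genes, that choice gave 0 in NC at 30 min, 2 at 2 h, 2 over time, 2 between clones at 30 min and at 1 h, 5 over the 5 times, and 4 in the interaction. With the compared groups fitted alone there were 5 calls between clones at 1 h, 2 in the interaction at 1 h and 5 in CR over time. With voom weights on the recovered reads there were 2 in CR at 30 min and 1 between clones at 30 min, and every count of 0 stayed at 0. Without the 4 libraries that stood apart, an alternative chosen after seeing the data, there were 2 in CR at 15 min, 0 at 30 min, 0 over time, 0 in NC at 2 h, 1 over time, 1 and 4 between clones at 15 min and 1 h, and 0 in the interaction at 30 min. Leaving out 1 library at a time gave 0 to 6 calls in CR at 15 min, 0 to 4 at 30 min, 0 to 4 at 1 h, 0 to 4 over time, 0 to 5 in NC at 2 h and 0 to 6 over time. Between clones it gave 0 to 1 at 15 min, 1 at 30 min and 0 at 1 h, and in the interaction 0 to 5 at 15 min, 0 to 4 at 30 min and 0 to 3 at 1 h. The changes of the NC ratios to H3.3 at 2 h ran from -0.60 to -0.19 for H3.2, -0.28 to 0.045 for H4a and -0.64 to -0.20 for H4b. The cause of these shifts was not tested. The counting error of these genes is at most 2.01%. That value does not cover library scaling or the division of reads between the H4 copies.

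Replicate numbers were not treated as pairs in the main fit. The correlation of deviations exceeded 0.1 in 59 of 135 same-number pairs, which ran from -0.75 to 0.76. Its median was 0.07 in these pairs and -0.05 in pairs of other numbers. Such a description cannot exclude a pairing. With the number as a replicate block there were 2 calls in CR at 30 min and 4 in CR over time.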
